A study of Caenorhabditis elegans with 6 samples.

Results

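The microRNAs (miRNAs) cel-mir-50, cel-mir-62 and cel-mir-90 of Caenorhabditis elegans are known to carry the same seed, the short stretch near the 5′ end of a miRNA that pairs with target messenger RNAs. They were chosen by name as the members of this seed family, are called mir-50, mir-62 and mir-90 here, and are 3 of the 253 miRNA genes counted. The data were small RNA libraries from dissected gonads of adult wild-type (N2) worms, with 3 libraries from hermaphrodites and 3 from males and no other treatment, allele or transgene. N2 is the standard laboratory strain. Adult hermaphrodite gonads produce oocytes, having produced sperm before adulthood, and male gonads produce sperm throughout. The comparison asked which of the 3 loci supplied the family's reads in gonads and whether that supply differed between the sexes.

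A miRNA is cut from a hairpin transcript and loaded into an Argonaute protein, which represses messenger RNAs that match its seed. Members of a seed family can therefore recognise overlapping sets of targets even where they are made from separate loci, and the family's level in a tissue is the sum of what its loci supply. This family is related to miR-190 of other animals. The shared seed is taken from that knowledge, since the mature sequences were not used here. One member, mir-62, is known as a mirtron, a hairpin that is released as a whole short intron by splicing rather than by the nuclease Drosha. The separate loci thus use different routes to the same seed.

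The 3 genes lie on 3 different chromosomes. In the WBcel235 annotation mir-50 is on chromosome I, in an intron of tln-1 and on the same strand, and tln-1 encodes talin, which links integrins to the actin cytoskeleton. On the X chromosome, mir-62 fills an intron of ugt-50, a predicted UDP-glucuronosyltransferase gene, with both ends of the hairpin within 3 bases of the ends of the intron. On chromosome III, mir-90 lies in a same-strand intron of K01F9.2, and mir-80 and mir-238 start within 10 kb of it on that strand. Neither mir-50 nor mir-62 had another annotated miRNA gene start that near on its strand. Mature products are annotated from both arms of the hairpin for mir-50 and mir-90, and from the 3′ arm alone for mir-62. The deposited values are 1 count per gene and do not separate the arms.

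The libraries differed in depth with sex. The hermaphrodite libraries held between 2268159 and 2621478 miRNA counts and the male libraries between 245399 and 597166, so that the mean total was 5.64-fold higher in hermaphrodites. Depth and sex cannot be told apart in this design, and the labels give no batch. The labels list 6 separate samples without saying that they came from separate dissections, so p-values measure the spread between these samples, which may be technical. Markers of oocytes and embryos, mir-35 to mir-42, summed to between 180896 and 192478 CPM (counts scaled to a common library total) in hermaphrodite libraries and to between 550 and 638 CPM in male libraries. The labels call the cells germline, but of 10 miRNAs known from somatic tissue 9 had counts and mir-84 was listed at 0. Their summed level was between 28519 and 34597 CPM in hermaphrodite and between 95954 and 102731 CPM in male libraries. After trimmed mean of M values (TMM) scaling between libraries, the gap was smaller. The same sum was then between 38728 and 58929 scaled CPM in hermaphrodite and between 59110 and 83920 scaled CPM in male libraries. Of the 7 somatic markers tested, 2 were called as higher and 1 as lower in male gonads, where 30.6% and 25.0% of all 124 tested miRNAs were. Those higher were mir-228 and lsy-6, and the lower one was the muscle marker mir-1. Most of the sum came from let-7 and mir-48, with log2 fold changes of male over hermaphrodite of 0.13 and 0.78, neither of them called. The part of these tissues in the values given here was not tested. Dissected gonads are bulk samples, so fewer cells of a type and less RNA per cell cannot be told apart.

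One locus supplied nearly all of the reads assigned to the 3 genes in both sexes. Both arms of a hairpin are counted together, so the counts, shares and sums given here do not separate the reads that carry the shared seed. The count of cel-mir-50 was 3692, 3544 and 2878 in hermaphrodite replicates 1 to 3 and 1758, 1402 and 448 in male replicates 1 to 3. The count of cel-mir-90 was 35, 24 and 20 in the hermaphrodite libraries and 6, 8 and 1 in the male libraries. The count of cel-mir-62 was 0 in each of the 6 libraries. As shares of the family's summed count, mir-50 held 99.2% ± 0.149 (SD, n = 3) in hermaphrodites and 99.6% ± 0.175 (SD, n = 3) in males. The rest was mir-90, with 0.767% ± 0.149 (SD, n = 3) in hermaphrodites and 0.377% ± 0.175 (SD, n = 3) in males. Over all 6 libraries, 13722 of the family's 13816 counts were from mir-50 and 94 were from mir-90. A share within 1 library does not depend on how libraries are scaled to each other. Each read covers a whole small RNA, though it may be a PCR copy, so these levels need no division by length. Ligation during library preparation is known to favour some sequences, and a ratio between miRNAs in reads is not a ratio in molecules.

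**Figure D1:**
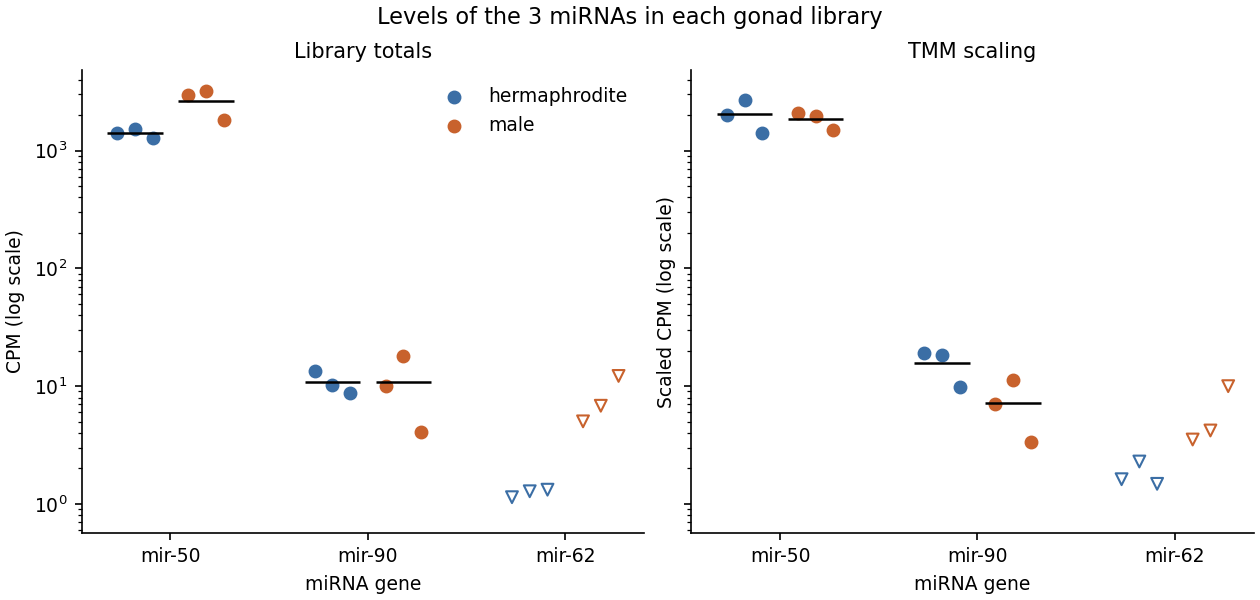
Level of each miRNA in each library on a log axis, as CPM from library totals (left) and as CPM after trimmed mean of M values (TMM) scaling (right); filled points are libraries, black lines are means over 3 libraries, and open triangles mark the limit that a count of 0 allows (3 counts) for mir-62. The mir-50 points lie about 2 orders of magnitude above the mir-90 points in every library, and the male mir-50 points lie above the hermaphrodite points on the left and overlap them on the right.

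The level of mir-50 was moderate among gonad miRNAs. It ranked between 26 and 30 among the 253 miRNAs in the 6 libraries, and its rank was 27, 28 and 30 in hermaphrodite replicates 1 to 3 and 27, 26 and 27 in male replicates 1 to 3. It took 0.141%, 0.151% and 0.127% of all miRNA counts in the hermaphrodite libraries and 0.294%, 0.318% and 0.183% in the male libraries. The 95% Wilson interval was 0.136% to 0.145% for hermaphrodite replicate 1 and 0.166% to 0.2% for male replicate 3, the shallowest library. Every male share was above every hermaphrodite share, where 71.0% of the 124 tested miRNAs did not overlap between the sexes in CPM. The lowest male library was male replicate 3. In that library mir-235 took 27.4% of all counts, against 7.34% and 6.84% in male replicates 1 and 2. With mir-235 left out of the totals, a choice made after seeing the data, mir-50 stood at 3177, 3418 and 2515 CPM in male replicates 1 to 3 and at 1424, 1533 and 1284 CPM in the hermaphrodite libraries.

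The level of mir-90 was low, and in male libraries it was close to the limit of detection. In CPM it stood at 13.4, 10.2 and 8.82 in hermaphrodite replicates 1 to 3 and at 10.05, 18.2 and 4.07 in male replicates 1 to 3, and the sexes overlapped. Its rank among the 253 miRNAs was 90, 88 and 99 in hermaphrodite libraries and 121, 113 and 121 in male libraries. A count of 0 allows up to 3 counts, which is between 1.14 and 1.32 CPM in hermaphrodite libraries and between 5.02 and 12.2 CPM in male libraries. In male replicate 3 the single mir-90 read was therefore under that limit. Such limits and intervals cover counting error only, since the reads carry no molecular identifiers to set PCR copies apart.

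The mirtron mir-62 was not detected. With 0 of 3727, 3568 and 2898 family counts in the hermaphrodite libraries, its share of the family could be up to 0.0805%, 0.0841% and 0.104%. In the male libraries, with 0 of 1764, 1410 and 449 family counts, it could be up to 0.17%, 0.213% and 0.668%. In these reads mir-50 was at least 959-fold higher than mir-62 in each hermaphrodite library and at least 149-fold higher in each male library, taking 3 counts per library as the limit. The order within each sex was mir-50 first and mir-90 next, with no overlap between them. In male replicate 3, where mir-90 had 1 count, mir-90 and mir-62 could not be placed in an order.

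A listing at 0 was common in these files. No library held a read of 72 of the 253 miRNAs (28.5%), among them 28 of the 56 with a single annotated mature product and 16 of the 71 on the X chromosome. How reads were trimmed, aligned and assigned to genes is not stated in detail, so a 0 says that no read was assigned to mir-62 under that counting. Another 7 miRNAs have hairpins that fill an intron in the same annotation. Of those 7, mir-1019, mir-1020, mir-4920 and mir-4927 were also at 0 throughout, mir-4924 and mir-4926 had at most 1 count in any library, and mir-4816 had counts in both sexes. Summed over libraries mir-4816 had 556 hermaphrodite and 56 male counts, and relative to hermaphrodites its log2 level fell by 2.00 in males (SE 0.58). That change passed edgeR's quasi-likelihood F-test, with a p of 0.00177 after Benjamini-Hochberg (BH) adjustment. In a list of 4 miRNAs recalled as mirtrons, mir-62, mir-1019 and mir-1020 were at 0. The other, mir-1018, is not in an intron in this annotation, and it had 548 hermaphrodite and 8219 male counts and rose by 5.21 in male gonads (SE 0.48, BH-adjusted edgeR p 2.27e-22). Of the 8 miRNAs whose hairpins fill an intron, 7 had 3 counts or fewer in every library, beside 105 of all 253.

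The sex difference was then tested for each miRNA. Of the 3 members, mir-50 and mir-90 passed the filter on low counts and mir-62 did not. After TMM scaling, which sets libraries to a common level from the bulk of their miRNAs, mir-50 stood at 1999, 2701 and 1420 scaled CPM in hermaphrodite replicates 1 to 3 and at 2064, 1961 and 1491 scaled CPM in male replicates 1 to 3. The sexes overlapped, and on this scale the hermaphrodite libraries spread more widely than the male libraries. In CPM from library totals the order of spread was the reverse, with an SD of 123 in hermaphrodite and 725 in male libraries. The hermaphrodite mean was 2040 scaled CPM ± 641 (SD, n = 3). The male mean was 1839 scaled CPM ± 305 (SD, n = 3). The log2 fold change of male over hermaphrodite was -0.15 (SE 0.40, 95% interval -0.94 to 0.65), with a BH-adjusted edgeR p of 0.825. The interval allowed a male level between 0.52 and 1.56 times the hermaphrodite level.

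For mir-90 the scaled values leaned to hermaphrodites without passing the test. They were 19.0, 18.3 and 9.87 scaled CPM in hermaphrodite replicates 1 to 3 and 7.04, 11.2 and 3.33 scaled CPM in male replicates 1 to 3. The highest male library lay above the lowest hermaphrodite library, so the sexes overlapped. The hermaphrodite mean was 15.7 scaled CPM ± 5.06 (SD, n = 3). The male mean was 7.19 scaled CPM ± 3.93 (SD, n = 3). The log2 fold change was -0.997 (SE 0.63, 95% interval -2.24 to 0.25), with a BH-adjusted edgeR p of 0.172.

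Neither of the 2 tested members was called at an adjusted p under 0.05, where edgeR called 55.6% of the 124 tested miRNAs, 30.6% as higher and 25.0% as lower in male gonads. At an unadjusted p under 0.05 edgeR also gave 0 of the 2, beside 61.3% of all. DESeq2, which called 55.6% of all, and limma-voom, which called 54.8% of all, called 0 of the 2 after adjustment, and at an unadjusted p under 0.05 DESeq2 gave 1 of the 2, mir-90, and limma-voom 0, each beside 60.5% of all. In scaled CPM 67.7% of the tested miRNAs did not overlap between the sexes, whereas both members did. Ranked from the most male-biased log2 fold change, mir-50 was 75 and mir-90 was 94 among the 124.

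**Figure D2:**
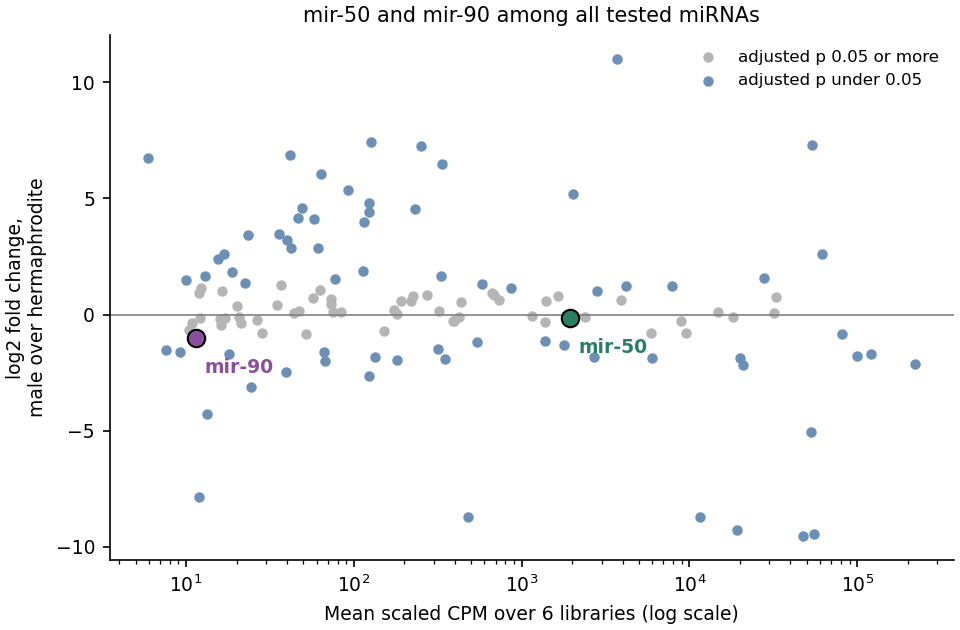
Log2 fold change of male over hermaphrodite gonads against mean level in scaled CPM over the 6 libraries for the 124 tested miRNAs, with edgeR's calls in blue. The point for mir-50 lies at -0.15 and that for mir-90 at -0.997, both among the grey points that were not called, mir-90 near the low end of the level axis.

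The direction for each member depended on the scaling between libraries. By library totals mir-50 was 1408, 1513 and 1269 CPM in hermaphrodite and 2944, 3184 and 1826 CPM in male libraries, with no overlap, like 71.0% of the tested miRNAs in CPM. Under that scaling the log2 fold change of mir-50 was 0.93 (SE 0.26, BH-adjusted edgeR p 0.0153). This was a call in favour of males, as for 55.6% of the 124 miRNAs. In the authors' normalized counts the order was the opposite, with 2122, 2637 and 1814 in hermaphrodite and 1565, 1740 and 1412 in male libraries, again with no overlap. There 68.5% of the tested miRNAs did not overlap. With upper-quartile scaling the log2 fold change of mir-50 was 0.13 (SE 0.24), with relative log expression (RLE) scaling -0.45 (SE 0.29), and with TMM computed without the mir-35 family -0.62 (SE 0.30). None of the last 3 was called.

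For mir-90, TMM without the mir-35 family gave a value of -1.52 (SE 0.56, BH-adjusted edgeR p 0.0356), a call of lower in male gonads that was shared by 29.0% of the 124. Under RLE scaling mir-90 was at -1.32 (SE 0.52, BH-adjusted edgeR p 0.051). Its sign changed when library totals were used, to 0.08 (SE 0.51). It was also called as lower without male replicate 2, at -1.75 (BH-adjusted edgeR p 0.0285), in a fit that called 27.3% as lower, and by limma-trend on the authors' normalized values at a pseudocount of 1, at -1.41 (BH-adjusted p 0.0474), which called 29.8% as lower. At a pseudocount of 0.1 limma-trend put mir-90 at -1.57 (BH-adjusted p 0.0594) and did not call it. In the authors' normalized counts it stood at 20.1, 17.9 and 12.6 in hermaphrodite and 5.34, 9.93 and 3.15 in male libraries, without overlap.

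Each scaling also moved the median of all tested miRNAs, from -0.35 with TMM without the mir-35 family to 1.18 with library totals, and it was 0.15 with TMM. A change of scaling shifts all miRNAs by nearly the same amount, so a value relative to that median is almost fixed by construction. This relative value was not among the planned results. The value for mir-50 minus the median lay between -0.30 and -0.25, and the value for mir-90 minus the median lay between -1.17 and -1.09, over the 5 scalings. These narrow ranges do not show a stable offset. With 1 library left out, the relative value lay between -0.646 and -0.272 for mir-50. For mir-90 it lay between -1.676 and -1.013 with 1 male library left out.

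**Figure D3:**
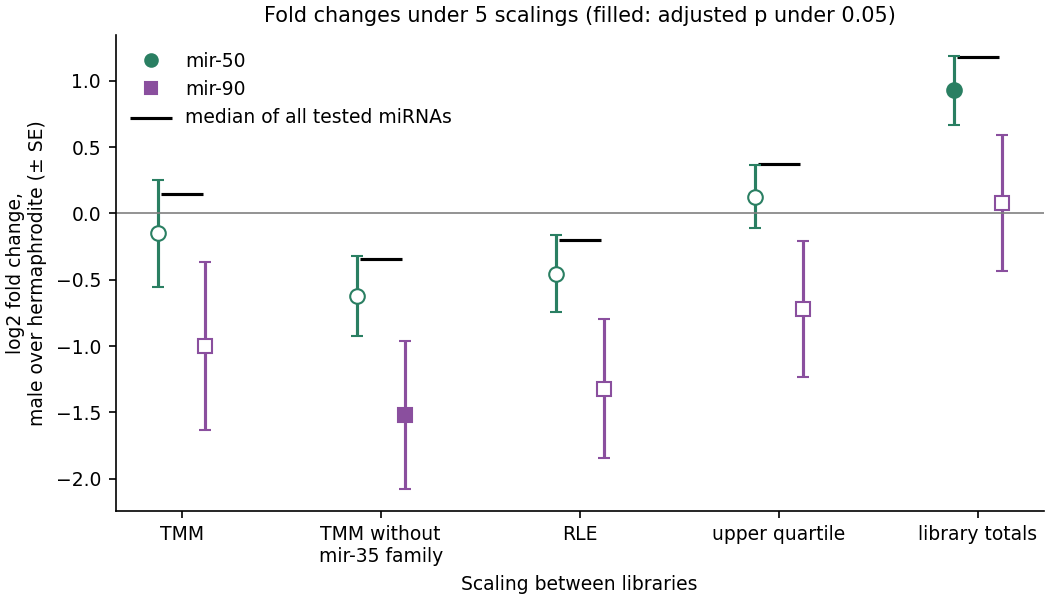
Log2 fold change of male over hermaphrodite gonads (± SE from the edgeR fit of 6 libraries) for mir-50 and mir-90 under 5 scalings, with filled symbols at an adjusted p under 0.05 and black bars at the median of all tested miRNAs. Both members move up and down with the bars, since a change of scaling shifts all miRNAs nearly alike. The mir-50 points lie just under the bars and the mir-90 points about 1 log2 unit under them. Each member is called under 1 scaling, in opposite directions.

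With the members summed and fitted as 1 family, the result followed mir-50. The sum stood at 2018, 2720 and 1430 scaled CPM in hermaphrodite replicates 1 to 3 and at 2071, 1973 and 1495 scaled CPM in male replicates 1 to 3, and the sexes overlapped. The log2 fold change of the sum was -0.18 (SE 0.38, 95% interval -0.95 to 0.59, BH-adjusted edgeR p 0.749), in a fit that called 56.1% of 123 miRNAs. By library totals the sum was called in favour of males, at 0.92 (SE 0.26, BH-adjusted edgeR p 0.0158), as were 56.1% of the 123 under that scaling. As a share of all miRNA counts the family held 0.141% ± 0.0123 (SD, n = 3) in hermaphrodites. In males it held 0.266% ± 0.0731 (SD, n = 3), 1.89-fold more, with no overlap. The two-sided exact permutation p was 0.1, the smallest that 3 libraries against 3 can give. In CPM, 71.0% of the 124 tested miRNAs did not overlap either. By library totals the median log2 fold change in the fit with the sum was 1.187, above the 0.92 of the sum.

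The measured part of mir-90 within the family was lower in each male library than in any hermaphrodite library. Its share of the summed count was 0.939%, 0.673% and 0.69% in hermaphrodite replicates 1 to 3 and 0.34%, 0.567% and 0.223% in male replicates 1 to 3. The counting intervals behind these shares were wide. The 95% Wilson interval was 0.452% to 0.999% in hermaphrodite replicate 2 and 0.288% to 1.12% in male replicate 2. Pooled over libraries, the share was 0.775% (79 of 10193 counts, interval 0.622% to 0.965%) in hermaphrodite and 0.414% (15 of 3623 counts, interval 0.251% to 0.682%) in male gonads.

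**Figure D4:**
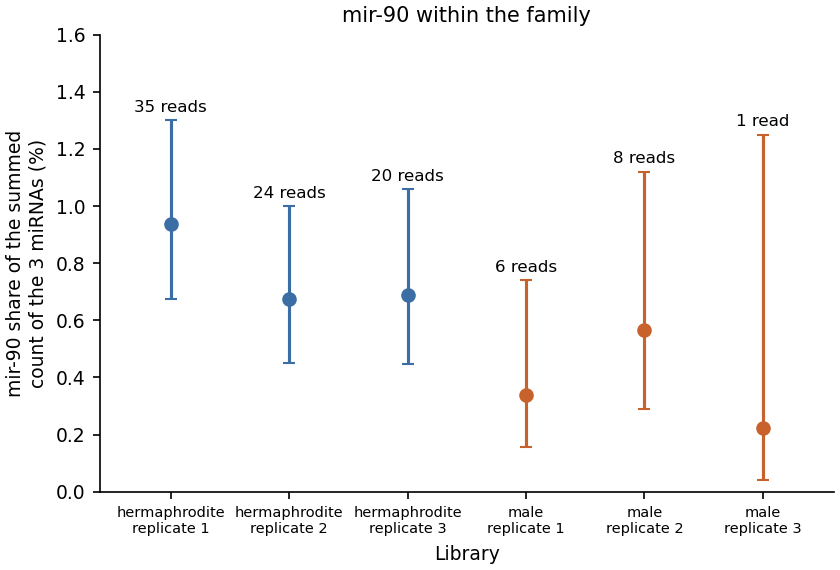
Share of the summed count of the 3 miRNAs held by mir-90 in each library, in percent, with 95% Wilson intervals that cover counting error and the number of mir-90 reads above each. The 3 hermaphrodite points lie at 0.673% and above and the 3 male points at 0.567% and below, while the intervals overlap between the sexes.

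Expressed as a ratio of counts, mir-50 exceeded mir-90 by 105-fold, 148-fold and 144-fold in hermaphrodite replicates 1 to 3 and by 293-fold and 175-fold in male replicates 1 and 2. In male replicate 3 the ratio was 448 to 1 over a single mir-90 read, with a 95% counting interval of 79.0 to 2542. The mean log2 ratio, with 0.5 added to each count, was 7.004 ± 0.26 (SD, n = 3) in hermaphrodites and 7.89 ± 0.46 (SD, n = 3) in males, a difference of 0.89. The two-sided exact permutation p was 0.1, also after adjustment over the 3 pairs of members, and it is the smallest that 3 libraries against 3 can give. The other pairs contain mir-62, whose count of 0 makes their ratios follow depth, and no difference is given for them. At the mean hermaphrodite share of the family, male replicates 1 to 3 would hold 13.5, 10.8 and 3.45 mir-90 counts, and they held 6, 8 and 1. At the mean hermaphrodite share of all miRNA counts they would hold 6.45, 4.76 and 2.65, on both sides of what was counted. The lower male part within the family thus rests on 15 male reads in all, and is relative to mir-50.

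Likeness of profiles across the 6 libraries was measured as the root mean square difference between log2 scaled CPM profiles, each centred on its own mean. Nearest to mir-50 were mir-253 at 0.21, let-7 at 0.23 and mir-1817 at 0.26, where the median over the other 123 tested miRNAs was 0.85. The heterochronic miRNA let-7, which times late larval development, had a log2 fold change of 0.13 (SE 0.37), and mir-253 had -0.32 (SE 0.40). Nearest to mir-90 were mir-55 at 0.36, mir-8195 at 0.38 and mir-61 at 0.38, against a median of 1.09. Between mir-50 and mir-90 the difference was 0.65, under both medians. It placed mir-90 at 41 in the order of likeness to mir-50, and mir-50 at 17 in the order of likeness to mir-90. With 6 libraries and 15 male reads, the profile of mir-90 carries much counting error.

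The genes around mir-90 gave other values. The hermaphrodite level of mir-238 was 29.4 scaled CPM ± 3.46 (SD, n = 3), and its male level was 40.7 scaled CPM ± 20.3 (SD, n = 3). For mir-238 the log2 fold change was 0.42 (SE 0.58, BH-adjusted edgeR p 0.587). Its profile differed from that of mir-90 by 1.18 on the measure above. The count of mir-80 was too low to be tested. Its mean was 0.615 scaled CPM ± 0.556 (SD, n = 3) in hermaphrodite libraries. In male libraries it was 2.22 scaled CPM ± 3.84 (SD, n = 3), an SD above the mean. Of the 9 miRNAs tested on chromosome III, 3 were lower and 0 were higher in male gonads, with a median log2 fold change of -0.80. On chromosome I, which holds mir-50, 1 of 13 was higher and 2 were lower, with a median of 0.55. On the X chromosome, which holds mir-62, 16 of 41 were higher and 10 were lower, with a median of 0.47. All 3 members lie in same-strand introns, and of the 21 tested miRNAs in such introns 4 were higher and 7 were lower, with a median of -0.32. These counts and medians are to be read beside those over all 124, of which 30.6% were higher and 25.0% lower, with a median of 0.15.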

How the data were processed

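Small RNA was sequenced from gonads of N2 adults, with 3 libraries per sex grouped by sample title. Per the labels' protocols, 1 µg of total RNA went into a TruSeq Small RNA library. The authors deposited 1 table of raw counts per library for 253 miRNAs. A second table that the authors deposited holds normalized values for the 6 libraries, treated here as a signal. It equals the counts divided by 1 size factor per library (0.3172 to 1.7396). Bowtie2, HTSeq and DESeq2 are named, without versions or settings, per the submitters' processing notes, and ce10 and miRBase 22 appear only in file and column names. How reads with matches to more than 1 miRNA were handled is not given in the sources used here. Library totals ranged from 245399 to 2621478 counts.

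The fit used edgeR 4.0.16 in R 4.3.3 on all 253 miRNAs: filterByExpr (minimum count 10), which kept 124, then TMM, robust dispersions, glmQLFit and a two-sided glmQLFTest of sex, with Benjamini-Hochberg adjustment at 0.05. Standard errors (SE) were obtained from the fold change and its F statistic. Intervals for shares are Wilson intervals, and permutation tests used scipy 1.17.1. Alternatives used DESeq2 1.42.0 and limma 3.58.1. The model was tested on simulated data for the same 124 miRNAs. Over 20 sets, each with 30 true log2 changes of 2, it found 87.5% of them, and 4.02% of its calls were false. Its rate for a log2 change as small as that of mir-90 (-0.997) was not tested. How these rates depend on the scaling between libraries was not tested either. In each set 30 of the 124 miRNAs were changed, whereas edgeR called 69 of the 124 in the data. Rates with that many changed miRNAs were not tested. Nor were rates with log2 fold changes as large as that of mir-35 (-9.45).

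The members, lists and tests were chosen with earlier results of these data known. The text names the members, a list of recalled mirtrons, tissue markers mainly as sums and, for each tested member, the 3 miRNAs with the nearest profile. The genes near mir-90 and the other miRNAs that fill an intron were added after the data were seen. Introns and chromosomes come from the WBcel235 annotation, Ensembl release 115, which matched 250 of the 253 by name. Its build differs in name from ce10, so no coordinate is given. Mature sequences were not used here. No pair of same-sex libraries agreed within counting noise (lowest chi-square 2683, with 122 degrees of freedom), which does not show that they were prepared from separate samples.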

Additional observations from a re-analysis of the deposited data

How the results depend on the processing

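Scaling decided the sign of the sex difference. By library totals the log2 fold changes were 0.93 for mir-50, 0.08 for mir-90 and 0.92 for the summed family, and upper-quartile scaling gave 0.13 for mir-50 and 0.19 for the sum. Library totals also moved the numbers of miRNAs higher and lower in male gonads to 69 and 20, from 38 and 31. Besides TMM without the mir-35 family (-1.52), mir-90 was called as lower in male gonads without male replicate 2 (-1.75, adjusted p 0.0285 in edgeR) and with limma-trend on the authors' normalized values at a pseudocount of 1 (-1.41, adjusted p 0.0474), within adjusted p-values of 0.0285 to 0.886 over its 15 alternatives. The cause was not tested. Those 2 fits called 27.3% and 29.8% of the miRNAs tested as lower. At a pseudocount of 0.1 limma-trend gave mir-90 a value of -1.57 (adjusted p 0.0594), which was not a call. Leaving out 1 library at a time gave log2 fold changes of -0.60 to -0.28 for mir-50, -0.61 to -0.31 for the sum and -1.75 to -1.03 for mir-90. Each range lay below the value from all 6 libraries, which was -0.15, -0.18 and -0.997 in the same order. Without a hermaphrodite library mir-90 was filtered out. With 1 library left out, the number higher in male gonads was 23 to 43 and the number lower was 26 to 44. The number higher was 24 without hermaphrodite replicate 2 and 23 without hermaphrodite replicate 3. The mir-90 share of the family was 0.681% to 0.815% in hermaphrodite and 0.281% to 0.454% in male gonads, and the log2 ratio of mir-50 to mir-90 differed by 0.72 to 1.15. Without the mir-35 family in the total, the family's hermaphrodite share of all counts was 0.173%. With the replicate number as a block, mir-50 was at -0.12, mir-90 at -1.14 and the sum at -0.15, none of them called, and 31 and 27 miRNAs were called as higher and lower. Same-numbered libraries correlated at -0.13, -0.02 and -0.26 in their deviations, and 0 of the 6 correlated best with their own number. Deviations from means of 3 libraries are too few to decide whether the numbers pair libraries. Male depth also limits mir-90 and mir-62.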
